A study of Homo sapiens with 12 samples.

Results

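The mRNA levels of 34 homologous recombination (HR) and Fanconi anaemia genes were followed in MCF10A cells, a breast epithelial line that does not form tumours, across 6 groups of 2 libraries. The genes were taken by symbol from a table of 60675 genes, and no value of theirs was part of the rule. All 34 passed the filter on low values (at least 1 TPM in at least 2 libraries), as did 15303 genes in all. The groups were cells labelled IL1R1-KO after a single dose of 20 Gy (RT) and untreated, IL1RAP-KO cells after RT and untreated, and wild-type (WT) cells after RT and untreated. The knockout cells were puromycin-selected pools made with a lentiviral CRISPR vector and not clones. All cells were seeded in plates the day before RT, and the time from RT to the collection of RNA was not given in the sources used here. The study asked whether the interleukin-1 receptor IL1R1 and its partner IL1RAP change what irradiation does to the transcriptome.

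HR repairs double-strand breaks by copying from the sister chromatid. Broken ends are first resected to single strands by MRE11, RAD50, NBN, RBBP8 (CtIP) and EXO1. BRCA1, BARD1, PALB2 and BRCA2 then prepare the single strand to search for its match. Accessory complexes and motor proteins help that strand pair with the intact duplex. Helicases, nucleases and their partners, such as BLM, MUS81, EME1 and SLX4, take apart the joined molecules. The Fanconi pathway unlocks interstrand crosslinks. Its core complex, with FANCL as ligase and UBE2T as the ubiquitin-conjugating enzyme, attaches ubiquitin to FANCD2 and FANCI, which recruit nucleases and HR. In dividing cells many of these genes are transcribed with the genes of S phase.

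Levels are TPM divided by a trimmed-mean factor for each library (scaled TPM). A gene was said to fall or rise when limma gave a Benjamini-Hochberg adjusted p under 0.05 over all 15303 genes and a fold change over 2, and log2 fold changes are those of scaled TPM + 1, which understates the change of low genes. Depth is unknown because the files hold TPM only. Mitochondrial genes took 36.9% to 57.0% of TPM in irradiated libraries and 18.3% to 21.1% in untreated ones. Unscaled TPM moved the median of all genes after RT by 0.03 (labelled IL1R1-KO), -0.28 (IL1RAP-KO) and -0.21 (WT) on the log2 scale. Scaling to nuclear protein-coding genes moved it by 0.40, 0.33 and 0.10 in the same order. As reported, 1278 genes fell and 1219 rose in cells labelled IL1R1-KO, 1428 fell and 1238 rose in IL1RAP-KO cells, and 954 fell and 1074 rose in WT cells. Unscaled TPM gave 1221 and 1345, 2532 and 733, and 1652 and 718 in the same order, and nuclear genes 566 and 2736, 685 and 2404, and 722 and 1220. IL1RAP mRNA was at 4.41 and 4.97 scaled TPM in untreated IL1RAP-KO libraries, against 18.04 and 20.7 in untreated WT libraries (log2 fold change -1.84, adjusted p 0.013). IL1R1 mRNA in untreated libraries labelled IL1R1-KO was close to that in WT, at 11.03 and 7.81 scaled TPM, against 10.7 and 9.46 in WT libraries (log2 fold change -0.10, 95% interval -0.46 to 0.26). This genotype is therefore called by its label. The mRNA level does not show whether the protein was lost. The study found no suitable IL1R1 antibody, but reported that its IL1R1 knockout cells resisted the breakdown of IκBα that IL-1α or IL-1β caused in wild-type cells. All 9 markers of basal mammary epithelium averaged at least 1 scaled TPM, as did 2 of 7 fibroblast (COL1A1 and DCN), 1 of 7 leukocyte (CD68) and 2 of 4 endothelial markers (PECAM1 and KDR).

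After RT, 12 of the 34 genes fell in all 3 genotypes and none rose in any. The 12 were BRCA1, XRCC2, RAD51AP1, RAD54L, EXO1, BLM, BRIP1, FANCA, FANCB, UBE2T, FANCI and EME1, and 4.29% of all genes tested fell in all 3. Another 6 fell in 1 or 2 genotypes (BARD1, BRCA2, XRCC3, RAD54B, FANCG and FANCD2), and 16 fell in none. By genotype, 13 of 34 fell in cells labelled IL1R1-KO (8.35% of all genes), 16 of 34 in IL1RAP-KO cells (9.33%) and 14 of 34 in WT cells (6.23%). None of the 34 rose, where 7.97%, 8.09% and 7.02% of all genes did so in cells labelled IL1R1-KO, IL1RAP-KO and WT. The members higher at an unadjusted p under 0.05 numbered 1, 1 and 2 in the same order, and those that differed in either direction 23, 25 and 26 of 34 (54.6%, 56.2% and 50.9% of all genes).

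The median log2 fold change of the 34 genes was -0.79 in cells labelled IL1R1-KO, -0.83 in IL1RAP-KO cells and -0.70 in WT cells, where the median of all genes tested was 0.00 in each. Their summed level was 353 to 441 scaled TPM in the 6 irradiated libraries and 585 to 638 in the 6 untreated ones. With no minimum fold change, 19 members were lower in cells labelled IL1R1-KO (26.1% of all genes), 24 in IL1RAP-KO cells (27.3%) and 22 in WT cells (23.7%). By that rule none was higher in cells labelled IL1R1-KO (22% of all genes), 1 was in IL1RAP-KO cells (RAD52, 22.7%) and 1 in WT cells (RAD51B, 19.8%). For 22 of the 34 genes all 6 irradiated libraries lay below all 6 untreated ones, a pattern of 23.2% of all genes, and for none did they lie above (18%).

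All 7 markers of cycling cells (MKI67, TOP2A, CCNB1, CDK1, AURKA, BUB1 and PLK1) fell in each genotype, and their summed level was 19.8 to 36.7 scaled TPM in irradiated libraries and 472 to 505 in untreated ones. Their part in the fall of the HR and Fanconi genes was not tested. In RNA from a whole culture, fewer cells in cycle and less of an mRNA in each cell cannot be told apart. Summed basal epithelial markers were at 2130 to 3308 scaled TPM after RT and 3754 to 4639 untreated, fibroblast markers at 43.1 to 91.0 and 17.9 to 23.01, leukocyte markers at 2.69 to 8.77 and 2.95 to 4.34, and endothelial markers at 6.52 to 9.81 and 2.97 to 4.89. A sum follows its most abundant markers. The 9 basal markers had median log2 fold changes of 0.20, 0.04 and -0.38 in cells labelled IL1R1-KO, IL1RAP-KO and WT. In cells labelled IL1R1-KO they ranged from -1.14 (KRT5) to 0.93 (LAMB3). The range was -1.09 (KRT5) to 0.57 (EGFR) in IL1RAP-KO cells and -1.51 (KRT14) to 1.27 (LAMB3) in WT cells. Of the fibroblast markers tested, DCN had 1.30, 1.32 and 1.83 and COL1A1 0.36, 0.46 and 0.78. COL1A2 was at 0 in every library, and the part of these cell types was not tested either.

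**Figure D1:**
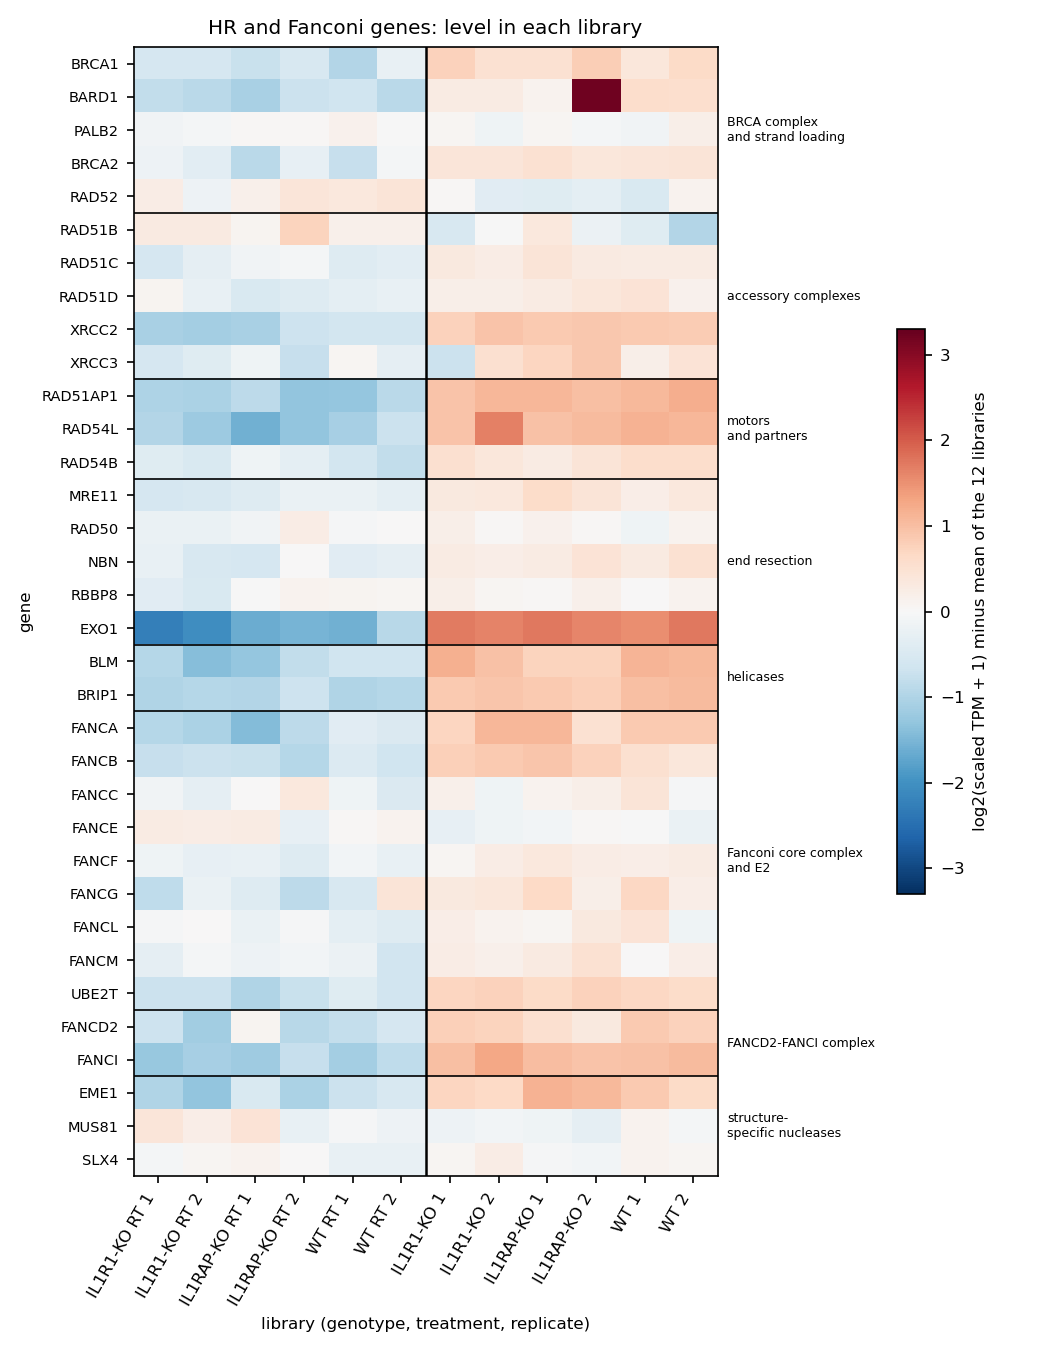
Each row is 1 of the 34 genes, grouped by role, and each column 1 of the 12 libraries, with the 6 irradiated ones (RT) on the left. Colour gives log2(scaled TPM + 1) minus the gene's mean over the 12 libraries: EXO1, RAD51AP1, RAD54L and FANCI are blue in all irradiated libraries, PALB2 and RAD50 hardly change, and BARD1 in untreated IL1RAP-KO replicate 2 stands out.

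Among the genes of end resection, the changes were uneven. EXO1, the exonuclease that extends resection over long tracts, had 0.34 and 0.55 scaled TPM after RT against 19.9 and 18.9 untreated in cells labelled IL1R1-KO, 1.05 and 1.22 against 20.3 and 18.5 in IL1RAP-KO cells, and 1.13 and 2.40 against 17.6 and 20.4 in WT cells. Its irradiated and untreated libraries were far apart in every genotype, and it kept 2.29%, 5.85% and 9.29% of its untreated mean in cells labelled IL1R1-KO, IL1RAP-KO and WT. EXO1 had the lowest log2 fold change of the 34 in each genotype, -3.82 ± 0.21 (SE, adjusted p 8.4e-07), -3.26 ± 0.21 (2.2e-06) and -2.89 ± 0.21 (5.6e-06) in the same order.

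The MRE11 complex, which senses broken ends and starts resection, moved far less. RAD50, its ATPase and the most abundant of the 34, averaged 88.1 ± 0.2 scaled TPM after RT against 111 ± 8 untreated in cells labelled IL1R1-KO, 109 ± 19 against 110 ± 6 in IL1RAP-KO cells, and 102 ± 3 against 102 ± 13 in WT cells (SD, n = 2 each). ENSG00000283782, a protein-coding gene on the same strand, overlaps 90061 bases of RAD50. Its log2 fold changes were 0.56, 1.41 and 0.89 in the same order, and it rose in IL1RAP-KO cells. How reads that lie in both genes were assigned was not given in the sources used here. The nuclease MRE11 had log2 fold changes of -0.89, -0.83 and -0.56 in cells labelled IL1R1-KO, IL1RAP-KO and WT, and the adaptor NBN of -0.64, -0.63 and -0.74. Both had an adjusted p of 0.013 or less in each genotype (MRE11 0.00011 to 0.0026, NBN 0.0066 to 0.013) but a fold change under 2. With unscaled TPM, MRE11 passed the fold threshold in IL1RAP-KO cells (-1.16).

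RBBP8, which activates MRE11, was chosen for naming after its values were seen. It averaged 39.4 ± 2.8 scaled TPM after RT against 58.7 ± 4.1 untreated in cells labelled IL1R1-KO, 56.0 ± 3.8 against 58.1 ± 3.9 in IL1RAP-KO cells, and 56.6 ± 0.6 against 56.2 ± 2.3 in WT cells (SD, n = 2 each). Only in cells labelled IL1R1-KO did its irradiated libraries lie below its untreated ones. The difference in response between these cells and WT cells was -0.58 on the log2 scale (95% interval -0.87 to -0.29, adjusted p 0.049), under a fold of 2. Its size depends on the scaling. Nuclear protein-coding scaling moved the median of all genes after RT by 0.40 in cells labelled IL1R1-KO and 0.10 in WT cells, toward a smaller difference. ENSG00000266850, a non-coding RNA on the opposite strand over 109461 bases of RBBP8, fell in the same cells (log2 fold change -1.18).

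Of the genes of the BRCA complex and strand loading, BRCA1 fell in all 3 genotypes and PALB2 stayed near its untreated level. BRCA1, the ubiquitin ligase that promotes resection and recruits PALB2, had 3.46 and 3.47 scaled TPM after RT against 10.2 and 8.32 untreated in cells labelled IL1R1-KO, 2.94 and 3.53 against 8.28 and 10.5 in IL1RAP-KO cells, and 2.38 and 4.50 against 7.53 and 9.12 in WT cells. No irradiated library reached the level of any untreated one, and the log2 fold changes were -1.19, -1.29 and -1.11 (SE 0.23, adjusted p 0.0018, 0.0011 and 0.0034). The fold of BRCA1 was close to the threshold: it was -0.98 in WT cells without WT replicate 2, -0.76 without WT RT replicate 1, and -0.79, -0.95 and -0.99 in cells labelled IL1R1-KO, IL1RAP-KO and WT with nuclear protein-coding scaling. BRCA1 overlaps the non-coding RNA NBR2 on the opposite strand over 28121 bases, and NBR2 rose (1.94, 1.77 and 1.13 in the same order of genotypes). Whether reads were counted by strand was not given in the sources used here, so reads of overlapping genes on opposite strands cannot be told apart.

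PALB2, the bridge between BRCA1 and BRCA2, had 13.5 and 14.1 scaled TPM after RT against 15.3 and 13.2 untreated in cells labelled IL1R1-KO, 15.1 and 15.2 against 15.3 and 14.1 in IL1RAP-KO cells, and 16.4 and 14.6 against 13.5 and 16.95 in WT cells. The groups overlapped in each genotype, and the log2 fold changes were -0.04, 0.04 and 0.03, with 95% intervals that lay between -0.33 and 0.33. BRCA2, which acts on the resected single strand and guards stalled forks, had 2.23 and 1.85 against 3.83 and 3.84 in cells labelled IL1R1-KO, 0.96 and 2.03 against 4.16 and 3.71 in IL1RAP-KO cells, and 1.15 and 2.51 against 3.82 and 3.87 in WT cells, RT before untreated. All 6 irradiated libraries were below all 6 untreated ones, with log2 fold changes of -0.67, -1.02 and -0.82 (adjusted p 0.056, 0.0089 and 0.028). BRCA2 fell in IL1RAP-KO cells only, and not there once IL1RAP-KO replicate 1 (-0.95, adjusted p 0.053) or IL1RAP-KO RT replicate 1 (-0.70, 0.059) was left out, with median-of-ratios factors (-0.99), with nuclear protein-coding scaling (-0.74), or when fitted on those 4 libraries alone (-1.02, 0.056). It fell in WT cells too without WT RT replicate 2 (-1.17, 0.01) or with a pseudocount of 0.1 (-1.13, 0.041).

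RAD52, an annealing protein that can stand in for BRCA2, did not fall. It had 18.8 and 13.7 scaled TPM after RT against 16.1 and 11.74 untreated in cells labelled IL1R1-KO, 17.8 and 21.02 against 11.72 and 12.3 in IL1RAP-KO cells, and 20.2 and 21.2 against 10.8 and 17.01 in WT cells. The groups overlapped in cells labelled IL1R1-KO and were apart in the other two, with log2 fold changes of 0.21, 0.65 and 0.57 (adjusted p 0.46, 0.032 and 0.058). Scaled to nuclear protein-coding genes, RAD52 passed both thresholds in IL1RAP-KO cells (1.03, adjusted p 0.0031).

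BARD1, the partner of BRCA1, was named after its values were seen because 1 library set its result. It had 1.09 and 1.00 scaled TPM after RT against 3.50 and 3.44 untreated in cells labelled IL1R1-KO, 0.76 and 1.27 against 3.02 and 33.1 in IL1RAP-KO cells, and 1.35 and 1.01 against 4.55 and 4.47 in WT cells. Untreated IL1RAP-KO replicate 2 was 7.28 times the highest of the other 11 libraries. It widened the spread estimated for BARD1, which fell in IL1RAP-KO cells only (-2.55 ± 0.72, adjusted p 0.014) and not in cells labelled IL1R1-KO (-1.13, 0.22) or WT cells (-1.34, 0.16). Without that library BARD1 fell in all 3, with log2 fold changes of -1.13 ± 0.19 (adjusted p 0.0014), -1.01 ± 0.23 (0.0092) and -1.34 ± 0.19 (0.0007) in cells labelled IL1R1-KO, IL1RAP-KO and WT, and the genes that fell numbered 14, 15 and 15. The 1 untreated IL1RAP-KO library that remained was then assumed to vary like the other groups. Leaving out IL1RAP-KO RT replicate 1 ended the call in IL1RAP-KO cells (-2.37, 0.062), as did a fit on those 4 libraries alone (-2.55, 0.15).

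**Figure D2:**
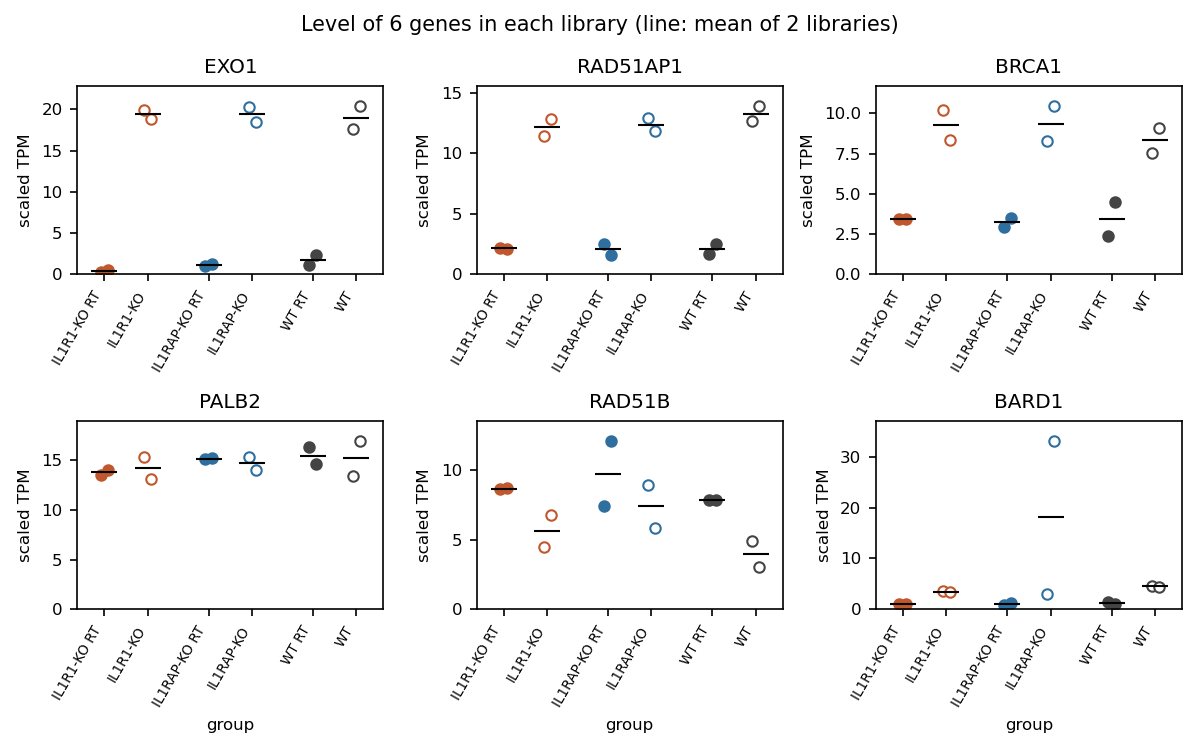
Scaled TPM of EXO1, RAD51AP1, BRCA1, PALB2, RAD51B and BARD1 in each of the 12 libraries (filled points RT, open points untreated, lines the mean of 2 libraries). EXO1 and RAD51AP1 are separated by RT in every genotype, PALB2 is not, and the mean of BARD1 in untreated IL1RAP-KO cells is set by 1 library at 33.1.

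XRCC2, XRCC3, RAD51B, RAD51C and RAD51D, which form the accessory complexes of strand pairing, went different ways. XRCC2 averaged 0.922 ± 0.040 scaled TPM after RT against 6.40 ± 0.64 untreated in cells labelled IL1R1-KO, 1.26 ± 0.45 against 6.57 ± 0.03 in IL1RAP-KO cells, and 1.72 ± 0.01 against 6.47 ± 0.07 in WT cells (SD, n = 2 each), and fell in each (log2 fold changes -1.94, -1.76 and -1.46). RAD51C, a member of both of these complexes, had log2 fold changes of -0.70, -0.46 and -0.67 with adjusted p of 0.003 or less in each, under a fold of 2. RAD51D, which links RAD51C to XRCC2, had -0.26, -0.77 and -0.57 (adjusted p 0.24, 0.0039 and 0.02), and passed the fold threshold in IL1RAP-KO cells with unscaled TPM (-1.02). XRCC3, the partner of RAD51C in the smaller complex, had -0.38, -1.25 and -0.44 and fell in IL1RAP-KO cells only. Leaving out IL1RAP-KO replicate 2 (-1.17, adjusted p 0.068) or its RT replicate 2 (-0.95, 0.092) ended that call, as did nuclear protein-coding scaling (-0.90).

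RAD51B, which joins RAD51C in the larger complex, had the highest log2 fold change of the 34 in WT cells. It had 8.60 and 8.72 scaled TPM after RT against 4.45 and 6.76 untreated in cells labelled IL1R1-KO, 7.40 and 12.1 against 8.92 and 5.84 in IL1RAP-KO cells, and 7.83 and 7.85 against 4.92 and 3.03 in WT cells. The groups overlapped in IL1RAP-KO cells. The log2 fold changes were 0.57, 0.35 and 0.86 (adjusted p 0.12, 0.32 and 0.03), and RAD51B passed both thresholds in WT cells without WT replicate 1 (1.13, 0.026).

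RAD51AP1 and RAD54L, which act in strand pairing itself, fell in every genotype. RAD51AP1, which helps capture a homologous duplex, had 2.19 and 2.12 scaled TPM after RT against 11.5 and 12.9 untreated in cells labelled IL1R1-KO, 2.54 and 1.63 against 12.9 and 11.8 in IL1RAP-KO cells, and 1.65 and 2.50 against 12.7 and 13.9 in WT cells. RAD54L, a motor that moves along double-stranded DNA, had 0.72 and 0.45 against 5.46 and 9.56 in cells labelled IL1R1-KO, 0.11 and 0.37 against 5.59 and 5.93 in IL1RAP-KO cells, and 0.57 and 1.05 against 6.39 and 6.19 in WT cells, RT before untreated. Both were lower in all 6 irradiated libraries, with log2 fold changes of -2.06, -2.13 and -2.23 for RAD51AP1 (SE 0.18, adjusted p 1.5e-05, 1.3e-05 and 1.4e-05) and -2.38, -2.46 and -2.02 for RAD54L (SE 0.25, adjusted p 4e-05, 3.6e-05 and 0.00015). RAD54B, a related motor, fell in WT cells (-1.29, adjusted p 0.00011) and had -0.91 and -0.59 in cells labelled IL1R1-KO and IL1RAP-KO (0.0008 and 0.0086). With a pseudocount of 0.1 it fell in cells labelled IL1R1-KO too (-1.13, 0.001). The difference between IL1RAP-KO and WT cells in the response of RAD54B was 0.69 (95% interval 0.22 to 1.17, adjusted p 0.15). FSBP, on the same strand over 58576 bases of RAD54B, had log2 fold changes of -0.07, 0.28 and -0.35 in cells labelled IL1R1-KO, IL1RAP-KO and WT.

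Both helicases fell in every genotype. BLM, which dissolves joined molecules with a topoisomerase, had log2 fold changes of -2.24, -1.79 and -1.76 in cells labelled IL1R1-KO, IL1RAP-KO and WT. BRIP1 (FANCJ), a helicase bound to BRCA1, had -1.85, -1.65 and -1.97, and its irradiated means were 0.480, 0.643 and 0.478 scaled TPM, against 4.35, 4.12 and 4.77 untreated.

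Of the 9 genes of the Fanconi core complex and its E2, FANCA, FANCB and UBE2T fell in all 3 genotypes and FANCG in IL1RAP-KO cells. FANCA, the scaffold most often mutated in Fanconi anaemia, had 2.05 and 1.82 scaled TPM after RT against 8.48 and 11.5 untreated in cells labelled IL1R1-KO, 1.17 and 2.23 against 11.6 and 7.33 in IL1RAP-KO cells, and 3.48 and 3.23 against 9.55 and 9.62 in WT cells. Its groups were apart throughout, with log2 fold changes of -1.89, -1.95 and -1.28 (SE 0.24, adjusted p 0.00015, 0.00012 and 0.002). UBE2T averaged 20.0 ± 0.1 scaled TPM after RT against 56.4 ± 1.2 untreated in cells labelled IL1R1-KO, 18.1 ± 2.4 against 54.9 ± 3.4 in IL1RAP-KO cells, and 23.2 ± 2.6 against 52.9 ± 1.6 in WT cells (SD, n = 2 each). Its log2 fold changes were -1.45, -1.55 and -1.16, and the first was -0.98 with nuclear protein-coding scaling.

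FANCB, which pairs with the ligase FANCL in the catalytic module, had log2 fold changes of -1.57, -1.69 and -1.003. The value in WT cells lay at the threshold and was -0.94 without WT replicate 1, -0.90 without WT RT replicate 2, -0.98 with median-of-ratios factors and -0.91 with nuclear protein-coding scaling. FANCG, an adaptor of FANCA, had -0.87, -1.06 and -0.51. Its call in IL1RAP-KO cells did not hold once IL1RAP-KO replicate 1 (-0.82, adjusted p 0.14) or its RT replicate 2 (-0.85, 0.13) was left out, with no filter on low values (-1.06, 0.068), or with nuclear protein-coding scaling (-0.72, 0.1). With IL1R1-KO RT replicate 2 left out, FANCG fell in the cells of that label (-1.18, 0.044). The 5 other core genes fell in none: FANCC, FANCF, FANCL and FANCM had log2 fold changes between -0.63 and 0.03.

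FANCE, which contacts FANCD2, was among the 4 highest in WT cells. It had 6.40 and 6.34 scaled TPM after RT against 4.12 and 4.57 untreated in cells labelled IL1R1-KO, 6.39 and 4.08 against 4.77 and 5.35 in IL1RAP-KO cells, and 5.35 and 5.70 against 5.05 and 4.26 in WT cells. Its groups overlapped in IL1RAP-KO cells, and no genotype passed the test (log2 fold changes 0.47, 0.02 and 0.21, adjusted p 0.056, 0.95 and 0.38).

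FANCD2 and FANCI carry the ubiquitin mark, and FANCI fell in all 3 genotypes. FANCI had 5.29 and 5.96 scaled TPM after RT against 28.5 and 35.3 untreated in cells labelled IL1R1-KO, 5.59 and 7.75 against 29.1 and 27.4 in IL1RAP-KO cells, and 5.78 and 7.35 against 28.0 and 29.8 in WT cells, with log2 fold changes of -2.30, -1.94 and -1.99 (SE 0.17, adjusted p 3.9e-06, 1.2e-05 and 1.4e-05). FANCD2 had 3.86 and 2.54 against 12.5 and 11.96 in cells labelled IL1R1-KO, 7.39 and 3.17 against 10.2 and 8.76 in IL1RAP-KO cells, and 3.53 and 4.32 against 13.4 and 12.3 in WT cells, RT before untreated. IL1RAP-KO RT replicate 1 was the highest irradiated library of FANCD2. FANCD2 fell in cells labelled IL1R1-KO (-1.68 ± 0.28, adjusted p 0.0009) and WT cells (-1.49 ± 0.28, 0.0022), and had -0.82 ± 0.28 in IL1RAP-KO cells (0.035, under a fold of 2). It fell there as well once IL1RAP-KO RT replicate 1 was left out (-1.33, 0.00087), or with unscaled TPM (-1.10, 0.021).

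Among the structure-specific nucleases only EME1 fell. EME1, the regulatory partner of MUS81, had log2 fold changes of -1.82, -1.88 and -1.38 in cells labelled IL1R1-KO, IL1RAP-KO and WT, while the nuclease MUS81 itself had 0.43, 0.32 and -0.13 and the scaffold SLX4 -0.17, 0.12 and -0.35, none past the test. EME1 lies at chromosome 17, 50373220 to 50381483 (GRCh38), and 6425 of its bases are covered on the opposite strand by LRRC59, which also fell (-1.47, -1.42 and -1.27). MUS81 is overlapped over 4901 bases by CFL1, which fell in IL1RAP-KO cells (-1.26).

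**Figure D3:**
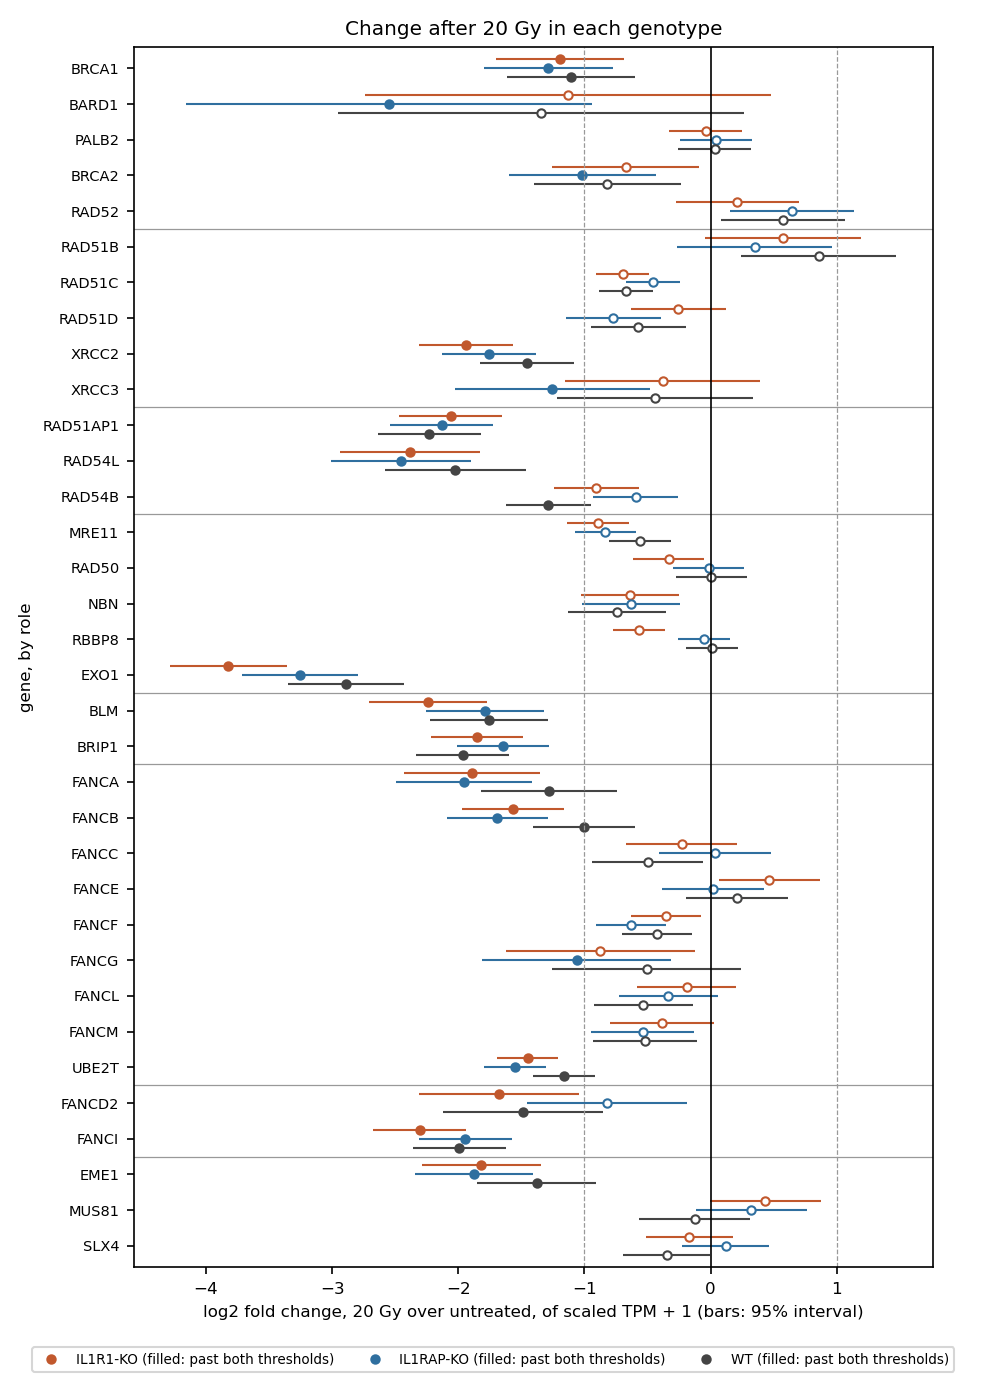
Log2 fold change after 20 Gy of each of the 34 genes in cells labelled IL1R1-KO, IL1RAP-KO and WT, with 95% intervals from limma. Filled points passed both thresholds, dashed lines mark a fold of 2, and all filled points lie to the left, from FANCB in WT cells (-1.003) to EXO1 in cells labelled IL1R1-KO (-3.82).

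The genes that start within 1000 bases of a member and run the other way were NBR1 (BRCA1), DCTN5 (PALB2), ERC1 (RAD52), ZFYVE21 (XRCC3), C12orf4 (RAD51AP1), ANKRD49 (MRE11), MOSPD2 (FANCB), GAS2 (FANCF), ENSG00000273063 (FANCL), FKBP3 (FANCM), MRPL27 (EME1) and DNASE1 (SLX4), among those tested. None of these 12 fell, where 6.23% to 9.33% of all genes fell in a genotype, and DNASE1 rose in cells labelled IL1R1-KO (1.13). The start was taken as the outermost annotated end of each gene, so neighbours of a start inside a gene were not counted. NBR2, on the opposite strand, starts 44694 bases inside BRCA1 and was not counted for that reason. It rose in each genotype (1.94, 1.77 and 1.13). The partners of PALB2, RAD52, MRE11, FANCF, FANCL, FANCM and SLX4 are those of members that did not fall themselves. C12orf4, whose start lies 290 bases from that of RAD51AP1, had log2 fold changes of -0.17, -0.12 and -0.09, and MOSPD2, 166 bases from FANCB, had -0.12, 0.09 and 0.13. MRPL27, 13 bases from EME1, had -0.59, -0.97 and -0.66, under a fold of 2. NBR1, 236 bases from BRCA1, had 0.41, 0.50 and 0.64, and ZFYVE21, 226 bases from XRCC3, had 0.06, -0.29 and 0.16.

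Because many of the genes moved together, the sequences around their transcription starts were searched. RefSeq promoters (GRCh38.p14, 250 bases before to 50 after the start) matched 31 of the 34 genes. Only 1 promoter was searched for each gene, the first listed, so a gene without a match may have one at another start. For some genes, such as RAD52, RBBP8 and FANCC, it lay far from the start used above for neighbouring genes. For BRCA1 it lay by the outermost start, which is 44694 bases from that of NBR2. The sequence near the NBR2 start was therefore not searched. The motif of E2F factors, which drive S-phase genes, was searched on both strands as TTTCCCGC, TTTGGCGC, TTTCGCGC or TTTGCCGC, and was in 5 of the 31 promoters and in 3.31% of 35116 RefSeq promoters. It was in 3 of the 11 matched genes that fell in all 3 genotypes (XRCC2, EXO1 and FANCA), in 1 of 5 that fell in 1 or 2 (FANCD2), and in 1 of 15 that fell in none (FANCC). The 35116 promoters were not limited to the genes tested here or to 1 for each gene. Shares of all promoters, here and below, are therefore not matched to the 31. Each match is shown with the bases on either side, 5′ to 3′ on the strand of the gene, with the match or its reverse complement in capitals, because these are the members with the full motif and they include 1 that did not fall.
XRCC2: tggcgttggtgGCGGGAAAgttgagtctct
EXO1: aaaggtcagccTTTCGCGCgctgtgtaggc
FANCA: actacaccgcgGCGGCAAAgccaaacgcaa
FANCD2: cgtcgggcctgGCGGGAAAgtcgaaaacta
FANCC at -172: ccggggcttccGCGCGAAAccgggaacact
FANCC at -46: ttcgtcggaatTTTCCCGCgacgccgcggg

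The XRCC2 sequence is at chr7:152676102-152676131 on the minus strand and the EXO1 sequence at chr1:241848197-241848226 on the plus strand. FANCA is at chr16:89816801-89816830 on the minus strand and FANCD2 at chr3:10026424-10026453 on the plus strand. The FANCC matches are at chr9:95317863-95317892 and chr9:95317737-95317766 on the minus strand. Counted from the RefSeq start, with negative positions before it, matches began at 4 in EXO1, 21 in XRCC2, -2 in FANCD2, -172 in FANCA, and -172 and -46 in FANCC. FANCC, with 2 matches, had log2 fold changes of -0.23, 0.03 and -0.50 in cells labelled IL1R1-KO, IL1RAP-KO and WT.

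A shorter form of the motif, without the first T of each of the 4 words and therefore present wherever the longer form is, was chosen with the values known. It was in 18 of the 31 promoters and 13% of all RefSeq promoters. It was in 8 of 11 genes that fell in all 3 genotypes, 4 of 5 that fell in 1 or 2, and 6 of 15 that fell in none (RAD52, RAD51D, FANCC, FANCE, FANCF and FANCL). The motif of the cell-cycle homology region, TTTGAA or TTCGAA on either strand, was in 3 of 31 promoters (BRIP1, FANCC and UBE2T) and 16.4% of all. CCAAT was in 12 of 31 and 34.6% of all. A match is a description of the sequence and was not tested for binding.

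Beyond the 34, an added list of 54 other HR and Fanconi genes had 51 that passed the filter. Of these 11 fell in cells labelled IL1R1-KO (8.35% of all genes), 10 in IL1RAP-KO cells (9.33%) and 8 in WT cells (6.23%). The medians were -0.38, -0.25 and -0.33. Another 2 rose, both in IL1RAP-KO cells (8.09% of all genes). MND1, a protein known for meiotic strand exchange, had log2 fold changes of -2.98, -3.12 and -2.90 and fell in each genotype. At the other end were EME2, a second partner of MUS81 (0.79, 0.54 and 0.86), and SWI5 (0.91, 1.24 and 0.77), of which SWI5 rose in IL1RAP-KO cells.

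Non-homologous end joining, which rejoins broken ends without a template, was measured with 15 genes. Of these 2 fell in cells labelled IL1R1-KO (8.35% of all genes), 2 in IL1RAP-KO cells (9.33%) and none in WT cells (6.23%). In each genotype 1 rose, where 7.97%, 8.09% and 7.02% of all genes did so. The medians were -0.08, -0.31 and -0.50. At an unadjusted p under 0.05, 6 were lower and 3 higher in cells labelled IL1R1-KO, 7 lower and 4 higher in IL1RAP-KO cells, and 8 lower and 3 higher in WT cells, where 54.6%, 56.2% and 50.9% of all genes differed in either direction. LIG4, the ligase of this pathway, rose in every genotype (1.06, 1.17 and 1.003). Its value in WT cells lay at the fold threshold, and its calls under the alternatives are not given. XRCC5 (Ku80), which binds the ends, fell in cells labelled IL1R1-KO and IL1RAP-KO cells (-1.37, -1.24 and -0.82). TP53BP1, which holds back resection, had 0.19, 0.32 and 0.53, and the kinase PRKDC -0.90, -0.95 and -0.73.

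DNA replication and mitosis genes fell more widely. Of 39 replication genes, 35, 33 and 29 fell in cells labelled IL1R1-KO, IL1RAP-KO and WT (medians -1.79, -1.71 and -1.66). Of all genes 8.35%, 9.33% and 6.23% fell in the same order. The lowest in WT cells were TK1 (-3.81, -3.60 and -3.51) and RRM2 (-4.06, -4.09 and -3.15), which make nucleotides, and the highest in WT cells the polymerase subunit POLD1 (-1.08, -1.49 and -0.64) and the helicase subunit MCM7 (-0.95, -1.10 and -0.62). In cells labelled IL1R1-KO (-0.34) and IL1RAP-KO cells (-0.27) the highest was POLD3, a subunit of the same polymerase. Of 45 mitosis genes, 45, 44 and 45 fell (medians -3.38, -3.61 and -3.18). The lowest in WT cells were the kinase PLK1 (-4.61, -5.50 and -4.77) and CDC20 (-5.63, -5.24 and -4.34), the activator of the anaphase-promoting complex, and the highest the condensin subunit SMC2 (-1.16, -0.93 and -1.22) and ECT2 (-1.17, -1.26 and -1.15). The medians of the 34 HR and Fanconi genes lay between those of all genes and those of the replication genes in each genotype. EXO1, at -3.82, -3.26 and -2.89, lay beyond the replication medians in each.

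**Figure D4:**
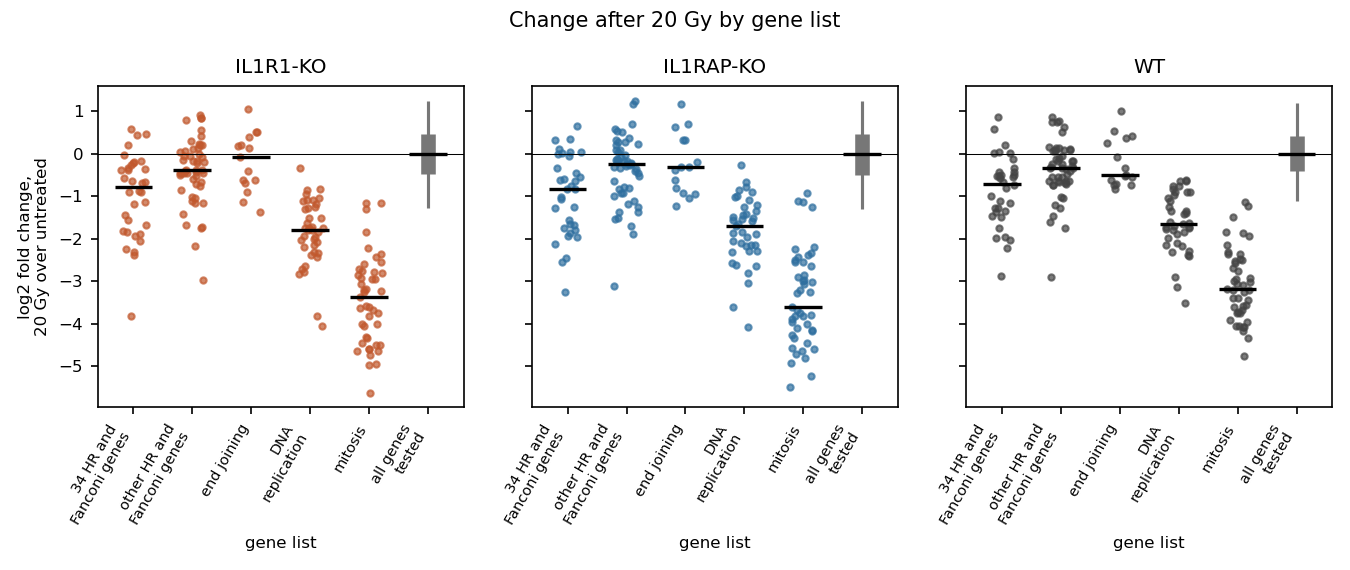
Log2 fold changes after 20 Gy in cells labelled IL1R1-KO, IL1RAP-KO and WT. Points are genes of the 34, of 51 other HR and Fanconi genes, of 15 end joining, 39 replication and 45 mitosis genes, black lines are medians, and the grey box and line hold the middle 50% and 90% of the 15303 genes tested; the 34 genes spread in WT cells from 0.86 (RAD51B) to -2.89 (EXO1).

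Knockout of either receptor was then compared with WT. In untreated cells, none of the 34 passed the test in cells labelled IL1R1-KO (0.137% of all genes did, in either direction) or in IL1RAP-KO cells (0.098%). An unadjusted p under 0.05 was found for 1 gene, RAD51B in IL1RAP-KO cells (log2 fold change 0.75, adjusted p 1), where 5.27% and 4.01% of all genes had one in the 2 comparisons. The 95% interval lay within a fold of 2 for 31 genes in the first comparison and for 30 in the second, with BARD1, RAD51B and XRCC3 outside in both and FANCD2 in the second. Without IL1RAP-KO replicate 1, BARD1 was higher in IL1RAP-KO cells (2.63, adjusted p 0.0047), since only the library at 33.1 scaled TPM remained.

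After RT, none of the 34 passed the test in cells labelled IL1R1-KO RT against WT RT (3.1% of all genes) or in IL1RAP-KO RT against WT RT (2.89%). At an unadjusted p under 0.05 there were 7 and 5 of 34 (26.6% and 31.2% of all genes), and with no minimum fold change 2 and none (12.2% and 14.9% of all genes). The 2 were RBBP8, with 41.4 and 37.4 scaled TPM in irradiated cells labelled IL1R1-KO, against 57.0 and 56.3 in irradiated WT cells (log2 fold change -0.52, adjusted p 0.0063), and EXO1 (-0.90, adjusted p 0.02). EXO1 had 0.34 and 0.55 scaled TPM in irradiated cells labelled IL1R1-KO, against 1.13 and 2.40 in irradiated WT cells. At such low levels its fold depends on the pseudocount, and with 0.1 it passed both thresholds (-1.71, 0.0083). Without WT RT replicate 1 the value was -1.24, since only the WT RT library at 2.40 remained. The intervals of 29 of 34 genes lay within a fold of 2 in each comparison.

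The response to RT itself was compared as the difference between the log2 fold changes of a knockout and of WT cells. No member passed the test in cells labelled IL1R1-KO (1.46% of all genes did) or IL1RAP-KO cells (0.83%). At an unadjusted p under 0.05 there were 2 members in cells labelled IL1R1-KO (RBBP8 and EXO1) and 3 in IL1RAP-KO cells (RAD54B, FANCB and UBE2T), where 17.1% and 17.5% of all genes did so, and with no minimum fold change 1 (RBBP8) and none (2.81% and 1.36% of all genes). EXO1 had a difference of -0.93 in cells labelled IL1R1-KO (95% interval -1.58 to -0.28, adjusted p 0.13). It was -1.27 without WT RT replicate 1, which left only the WT RT library at 2.40 scaled TPM. BRCA1 had -0.09 (-0.81 to 0.63) in cells labelled IL1R1-KO and -0.18 (-0.90 to 0.54) in IL1RAP-KO cells. The intervals of 20 of 34 genes lay within a fold of 2 in each knockout, so for the other 14 a difference of that size was not excluded by these data. Calls in 1 genotype and not another, such as those of BRCA2, XRCC3, RAD54B, FANCG and FANCD2, are therefore not shown to differ between genotypes. The BARD1 difference of IL1RAP-KO cells was -1.21 (adjusted p 0.57), -2.75 with untreated IL1RAP-KO replicate 1 left out (0.0061) and 0.33 with replicate 2 left out (0.67).

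**Figure D5:**
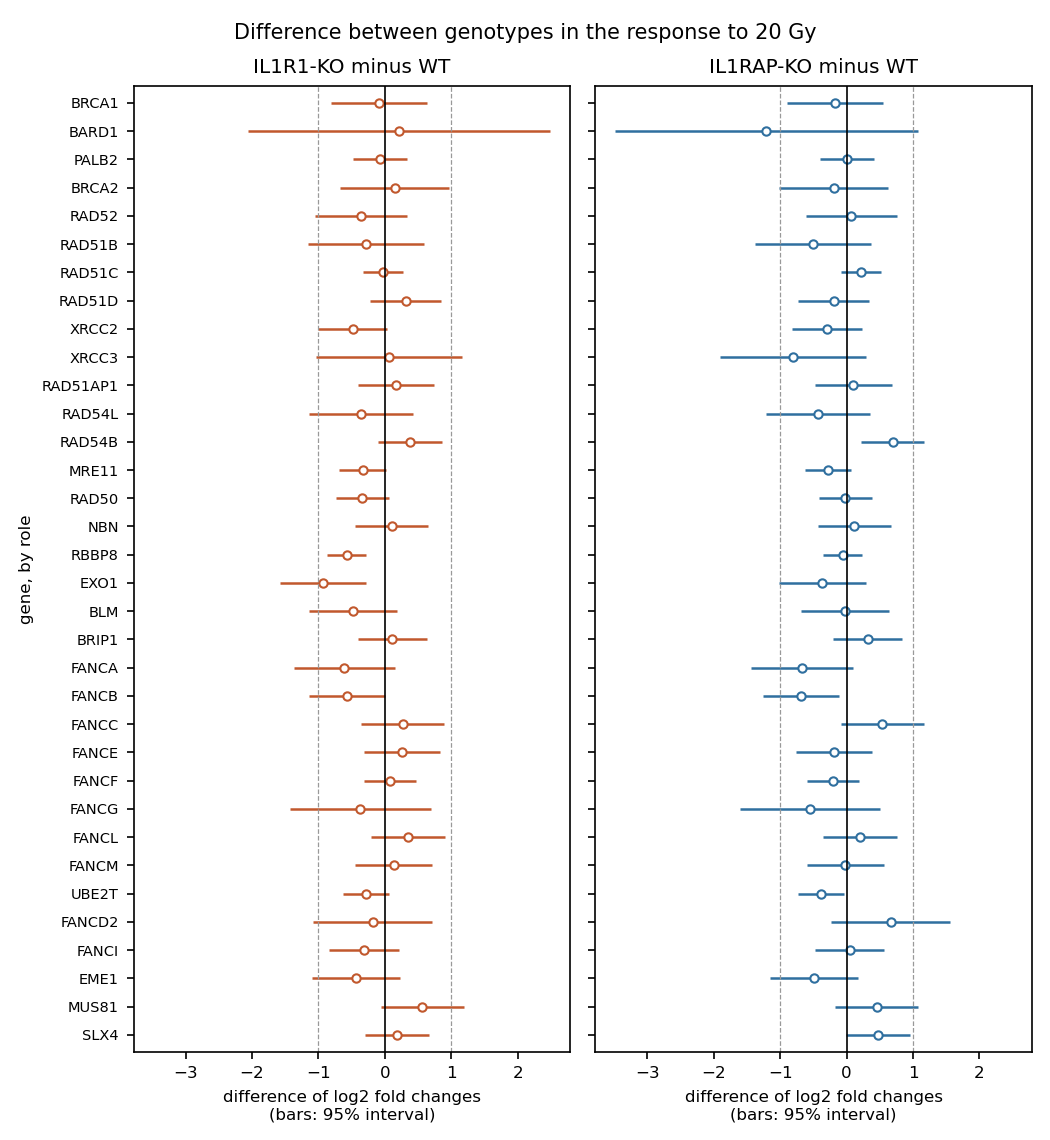
Difference between the log2 fold change after RT in cells labelled IL1R1-KO (left) or IL1RAP-KO cells (right) and that in WT cells, for each of the 34 genes with its 95% interval. No gene passed both thresholds; RBBP8 (-0.58) and EXO1 (-0.93) lie left of 0 in cells labelled IL1R1-KO, and the widest intervals are those of BARD1.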

How the data were processed

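RNA of 12 MCF10A libraries (2 biological replicates in each of 6 groups, per the study's design) was measured. The authors made stranded libraries after depletion of ribosomal RNA. Their processing notes name Cutadapt, STAR and HTSeq and the build GRCh38. What they deposited is TPM for 60675 genes, and the 12 single-library tables equal the columns of the joint table. Gene lengths, read depth and the strand setting were not given in the sources used here.

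TPM were divided by unweighted trimmed-mean factors (at both ends 30% of M values and 5% of A were trimmed). limma (version 3.58.1, R 4.3.3) was run on log2(scaled TPM + 1) with a mean for each of the 6 groups and a trend of variance on level, which left 6 residual degrees of freedom beside 3.73 from the prior. Genes with at least 1 TPM in at least 2 libraries were tested. The thresholds were 0.05 for the adjusted p and 2 for the fold. Alternatives were unscaled TPM, median-of-ratios factors, scaling to nuclear protein-coding genes, a pseudocount of 0.1, no filter, no minimum fold change, the compared groups alone, a replicate block and each library left out. Positions are from GENCODE v44. Figures were drawn with matplotlib 3.10.9.

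Members, lists, tests and the scaling were chosen with earlier results of these data known. Values in every library are given for the 4 lowest and 4 highest members in WT cells and for BRCA1, BRCA2, FANCD2 and FANCA, and of other lists the 2 lowest and 2 highest genes in WT cells are named, except for items that are not reported here. Other genes were named after their values were seen.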

Additional observations from a re-analysis of the deposited data

How the results depend on the processing

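The numbers of the 34 genes that fell after RT stayed within 1.5 times the reported ones under every alternative but the one without a minimum fold change, which gave 22 in place of 14 in WT cells. Leaving out 1 library at a time gave 13 to 14 in cells labelled IL1R1-KO, 14 to 16 in IL1RAP-KO cells and 13 to 15 in WT cells. The replicate block gave 13, 16 and 14, as reported, and changed no other count. Same-numbered libraries did not deviate together (correlations of -0.0614 to 0.0949 over 15 pairs of groups), so the numbers were not taken to pair the libraries. Scaling to nuclear protein-coding genes gave 11, 12 and 12, and unscaled TPM 13, 19 and 14. Of 43 calls of single members, 34 held under all 19 alternatives with a fold minimum and none changed direction. Of genes that rose after RT, none were reported: 1 was called in WT cells with a pseudocount of 0.1 and with no minimum fold change (0 to 1 with a library left out), and 1 in IL1RAP-KO cells with nuclear scaling and with no minimum fold change. Knockout comparisons had no reported call. A library left out gave 0 to 1 higher in untreated IL1RAP-KO cells, 0 to 1 lower in cells labelled IL1R1-KO RT against WT RT, and 0 to 1 lower in each difference in response. The pseudocount of 0.1 gave 1 lower in IL1R1-KO RT against WT RT. With no minimum fold change 2 were lower there, and 1 in the difference in response of cells labelled IL1R1-KO. The cause of these shifts was not tested. With 2 libraries a group and depth unknown, changes near a fold of 2 in genes of a few TPM could not be resolved.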

Other observations

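The high BARD1 value in untreated IL1RAP-KO replicate 2 was singular in the table. It was the 1 case, over all 12 libraries, of a protein-coding gene at 10 or more scaled TPM and over 5 times its level in every other library. BARD1 had 33.1 scaled TPM there and 4.55 or less in the other 11 libraries. The other untreated IL1RAP-KO library had 3.02. BRCA1, whose protein pairs with BARD1, had 10.5 in untreated IL1RAP-KO replicate 2, against 7.53 to 10.2 in the other untreated libraries.

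Across the 34 genes, the log2 fold changes after RT in cells labelled IL1R1-KO correlated with those in IL1RAP-KO cells at r = 0.904, a description over genes that are not independent. With WT cells, r was 0.940 for cells labelled IL1R1-KO and 0.893 for IL1RAP-KO cells. The groups contrasted share no library, but scaling and fit were common to all 12. The log2 fold changes were below 0 in all 3 genotypes for 25 of the 34 genes and above 0 in all 3 for 3 (RAD52, RAD51B and FANCE).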
